A study of Homo sapiens with 8 samples.

Results

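The 8 genes described here, GTF2A1, GTF2A2, TBP, GTF2B, GTF2E1, GTF2E2, GTF2F1 and GTF2F2, encode general transcription factors of RNA polymerase II. They were found by gene name among the 25945 genes of the table, each under a single identifier, and all 8 passed the filter on low counts that left 14528 genes to test, with at least 518 reads in every library. The RNA was from MiaPaCa-2 cells, a long-established line from a human pancreatic carcinoma, 48 h after siRNA transfection. The control group was 4 libraries from cells labelled WT that received a scrambled siRNA, named SCR in the labels. The other group was 4 libraries from cells labelled BARD1 knockdown that received siRNA against BARD1, the partner of BRCA1 in DNA repair. The line, the transfection and the harvest time were shared by both groups, and the labels give neither the siRNA sequences nor the culture each library was made from. The p-values below thus cover the spread between libraries of a group, and that spread may be technical. The study asked what silencing BARD1 does in pancreatic ductal adenocarcinoma cell lines.

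The set was chosen by gene name once the counts of GTF2A2 in both siRNA groups, and its fold change between them, were known. Differences between the siRNA groups in these 8 genes are therefore given as a description, with no p-value. How many of them passed the threshold of the fit over all genes is stated once, beside the share over all genes, and is not evidence about them. The p-values below concern other genes or a comparison that was not used to choose them.

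General transcription factors assemble on a promoter before RNA polymerase II can start a transcript. TBP binds the TATA element as part of TFIID, TFIIA holds TBP on the DNA, and TFIIB bridges TBP and the polymerase. TFIIF comes with the polymerase, and TFIIE then draws in TFIIH, which opens the DNA. As all protein-coding genes use this machinery, its genes are active in every cell type, cancer lines included.

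Libraries held 24458665 to 36212716 counts in total. A floor of 3 counts was worth 0.0828 to 0.123 CPM (counts scaled to the library total), for counting error only. The floor uses the library totals alone, and all other CPM values use TMM library factors. BARD1 was at 20.8 to 28.0 CPM in the control libraries and at 2.24 to 7.59 CPM in the BARD1 siRNA libraries (exact permutation test, two-sided, p = 0.0286, the smallest that 4 against 4 libraries allow), and the highest of the latter was library 4. The library numbered 4 of each group was set off from the other 6, so values by pair and without these libraries are given beside the results. Of 8 ductal and epithelial markers in the table, KRT8, KRT18, KRT19, SOX9 and MUC1 had a median of at least 1 CPM, while KRT7 reached at most 0.283 CPM and EPCAM and CDH1 had a median of 0. VIM, a mesenchymal gene, was at 1632 to 1769 CPM in control and 1809 to 2043 CPM in BARD1 siRNA libraries. CDH5, the 1 endothelial marker in the table, was at 3.49 to 5.18 and 6.74 to 10.2 CPM, so the groups overlapped for neither gene, and the part of these markers in the results was not tested. Among markers of other cell types, the collagen gene COL1A2 lay between 434 and 1139 CPM, but COL1A1, DCN and LUM reached at most 2.01, 1.35 and 0.0842 CPM.

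GTF2A2, which encodes the small gamma subunit of TFIIA, was the member that differed most between the siRNA groups. Its level was 50.9, 49.6, 56.1 and 41.3 CPM in control libraries 1 to 4. With BARD1 siRNA it was 17.7, 19.8, 17.9 and 19.2 CPM in libraries 1 to 4. All 4 BARD1 siRNA libraries were below all 4 controls, and in CPM they lay closer together than the controls did. The spread relative to the level was not compared. The means were 49.5 ± 6.11 and 18.7 ± 1.04 CPM (SD, n = 4 each), a level 2.65-fold lower, with a log2 fold change of -1.41 (SE 0.11). Ranked from the lowest fold change of the 14528 genes tested, GTF2A2 (ENSG00000140307) stood at place 35. In these bulk samples, less transcript per cell and fewer cells holding it cannot be told apart.

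**Figure D1:**
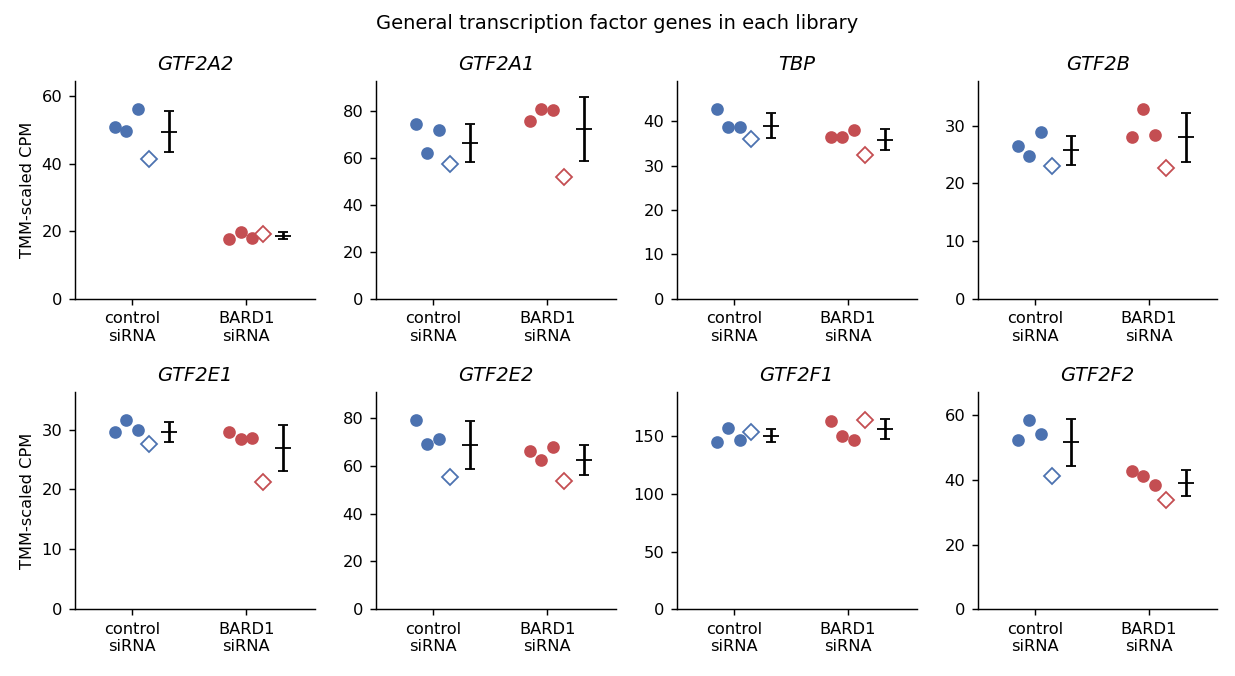
TMM-scaled CPM (vertical axes, each from 0) of the 8 genes in control siRNA and BARD1 siRNA libraries. Filled circles are libraries 1 to 3, open diamonds libraries numbered 4, and bars the mean ± SD of 4 libraries. In GTF2A2 the BARD1 siRNA libraries sit between 17.7 and 19.8 CPM, all below the lowest control at 41.3 CPM, and in the other 7 genes the groups overlap.

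The difference in GTF2A2 was present in each pair of libraries that share a number. It was -1.52, -1.32 and -1.65 on the log2 scale in pairs 1 to 3 and -1.10 in pair 4. Pair 4 thus showed the smallest difference, by 0.40 against the mean of the others. Its control library had the lowest GTF2A2 level of the controls, at 41.3 CPM. BARD1 siRNA library 4, at 19.2 CPM, lay within the 17.7 to 19.8 CPM of BARD1 siRNA libraries 1 to 3. BARD1 itself was at -1.46 in pair 4 against -3.64 to -2.91 in the others, and a link between BARD1 and GTF2A2 levels was not tested. With the replicate number as a block the log2 fold change of GTF2A2 was -1.40 (SE 0.09), and without both libraries numbered 4 it was -1.50.

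GTF2A2 lies on chromosome 15 (GRCh37, 59930261 to 59949740, minus strand). GCNT3 overlaps it by 2178 bases on the opposite strand, and GCNT3 held 0 to 4 reads per library. The nearest tested genes on either side showed no comparable difference. BNIP2, an apoptosis-related gene that ends 1605 bases from GTF2A2, was at 51.0 ± 4.26 and 52.8 ± 6.89 CPM (SD, n = 4 each), with a log2 fold change of 0.05 (SE 0.11, edgeR adjusted p = 0.881). FAM81A, 114513 bases away on the other side, was at 13.7 ± 0.604 and 11.7 ± 2.91 CPM (-0.23, SE 0.18, edgeR adjusted p = 0.593).

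The 3′ UTR of GTF2A2 holds an octamer that was frequent among the genes lower with BARD1 siRNA. Of all 8-letter words on the transcript strand, GTF2A2 being among the genes searched, ATACAGAA had the largest difference in share between genes that fell and the rest. It was found in 128 of 456 genes that fell (28.1%) and in 598 of 11603 others (5.15%), over 12059 tested genes with a 3′ UTR in GENCODE 29. Taken over the longest 3′ UTR of each gene, 6.02% of genes held it. The octamer overlaps the heptamers ATACAGA and TACAGAA, and 2156 genes held a heptamer without the octamer. Among the 8 members, GTF2A2 held the octamer, GTF2F2 each heptamer at separate sites, GTF2A1 a heptamer, and TBP, GTF2B, GTF2E1, GTF2E2 and GTF2F1 none of them. The matches of all members that hold them are shown as a description. The log2 fold changes of the holders were -1.41 in GTF2A2, -0.40 in GTF2F2 and 0.12 in GTF2A1. A link between the matches and these values was not tested. Each line gives a stretch of at most 30 bases of the transcript, 5′ to 3′, with the match in capitals.
GTF2A2: tgcttgcagaaATACAGAAgtaacatactg
GTF2F2, first site: gagctgaggtaATACAGAtccaaggagaa
GTF2F2, second site: aaacagtcaacTACAGAAactcttaaaag
GTF2A1: tttaatttcctTACAGAAaaacttaattt
In GRCh38, the build of that annotation, the GTF2A2 stretch is chr15:59638350-59638379 on the minus strand. Those of GTF2F2 are chr13:45283906-45283934 and chr13:45283951-45283979 on the plus strand, and that of GTF2A1 is chr14:81179463-81179491 on the minus strand.

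The GTF2A2 octamer occupies bases 764 to 771 of a 3′ UTR of 1070 bases in the transcript ENST00000396060. Of the 5 basic protein-coding transcripts of GTF2A2, 1 holds it, and the 3′ UTRs of the others have 19 to 263 bases and lack it. Counts per gene do not say which of these transcripts the cells used.

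GTF2A2 lay far down among the genes that hold the octamer. As the octamer was found from the genes that fell, the counts by class are a description, with no test. The median log2 fold change of its holders was -0.15, with 128 of 726 lower (17.6%) and 6 higher. It was -0.01 in genes with a heptamer only, of which 142 were lower (6.59%) and 53 higher, and 0.01 in the 9177 genes with neither, of which 186 were lower (2.03%) and 191 higher. Over all 12059 genes with a 3′ UTR, 5.85% were called, 3.78% lower and 2.07% higher. GTF2A2 had place 13 of 726, so most genes that share the octamer differed far less than it did. The 3′ UTRs themselves differed in length, with medians of 3220, 2763 and 1007 bases in these classes. Among genes whose 3′ UTR has at least 1000 bases, 16.8% of those with the octamer, 5.59% of those with a heptamer only and 1.89% of those with neither were lower. Their median lengths were still unlike, at 3435, 3153 and 2025 bases, so this cut does not match the classes for length. The part of the octamer in the difference of GTF2A2 was not tested.

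**Figure D2:**
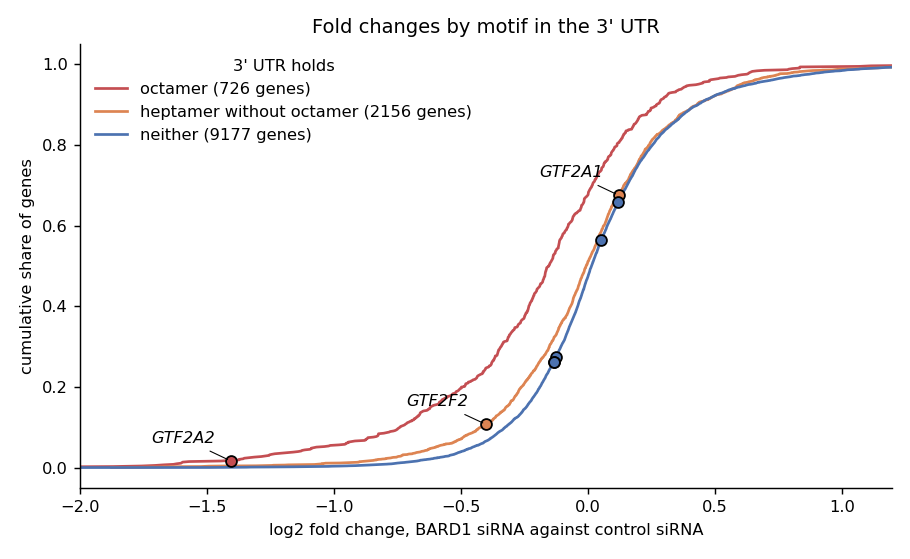
Cumulative share of genes (vertical axis) against log2 fold change between BARD1 siRNA and control siRNA (horizontal axis), for 726 genes whose 3′ UTR holds the octamer, 2156 with a heptamer of it and 9177 with neither. Points mark the 8 genes on the curve of their class. The octamer curve lies to the left of the others, and GTF2A2 at -1.41 lies in its lower tail.

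GTF2A1, whose product is cut into the alpha and beta subunits that join the GTF2A2 product in TFIIA, showed no difference of that size. The gene lies on chromosome 14 (GRCh37, 81641796 to 81687721, minus strand). It was at 74.2, 62.1, 71.8 and 57.3 CPM in control libraries 1 to 4. With BARD1 siRNA it was at 75.8, 80.6, 80.4 and 52.0 CPM. The groups overlap, and the lowest value of each was library 4. The log2 fold change was 0.12 (SE 0.15), and without both libraries numbered 4 it was 0.19. Within pairs the difference was 0.03, 0.38 and 0.16 in pairs 1 to 3 and -0.14 in pair 4, so its sign differed between pairs.

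The balance of the TFIIA transcripts therefore differed between the siRNA groups. Per length, the GTF2A2 to GTF2A1 ratio of the authors' FPKM was 2.73, 3.19, 3.12 and 2.88 in control libraries 1 to 4. It was 0.929, 0.981, 0.888 and 1.48 with BARD1 siRNA. The log2 ratio was 1.57 ± 0.10 and 0.06 ± 0.34 (SD, n = 4 each), a difference of -1.51, and the ranges did not overlap. Pair 4 had the smallest difference at -0.96, against -1.56 to -1.81 in the others. Per annotated gene length, GTF2A2 thus lay above GTF2A1 in control libraries and near it with BARD1 siRNA, library 4 least so. In CPM, without length, GTF2A1 was higher in both groups, at 66.4 against 49.5 in control and 72.2 against 18.7 with BARD1 siRNA. As the transcript lengths the cells used are not known, an excess of either transcript is not shown.

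TFIIF also showed a shift between its subunits, of a smaller size and with overlapping groups. GTF2F2 lies on chromosome 13 (GRCh37, 45694650 to 45858237, plus strand) and GTF2F1 on chromosome 19 (6379580 to 6393992, minus strand). GTF2F2, its small subunit, was at 52.4, 58.5, 54.1 and 41.3 CPM in control libraries 1 to 4. It was at 42.7, 41.3, 38.5 and 33.7 CPM with BARD1 siRNA. Control library 4 lay within the range of the BARD1 siRNA libraries, and the other 3 controls lay above it. The log2 fold change was -0.40 (SE 0.12), and within pairs it was -0.30, -0.50, -0.49 and -0.29. The large subunit gene GTF2F1 was at 144 to 157 CPM in the control libraries and 146 to 164 CPM with BARD1 siRNA (log2 fold change 0.05, SE 0.07). The log2 ratio of GTF2F2 to GTF2F1 per length was -0.62 ± 0.23 in control and -1.07 ± 0.19 in BARD1 siRNA libraries (SD, n = 4 each). The ranges of this ratio overlapped, as control library 4 at -0.96 lay below BARD1 siRNA library 2 at -0.93. The difference of the ratio was -0.47, -0.44, -0.49 and -0.39 in pairs 1 to 4, close to the same value in all pairs although library 4 was lowest in each group.

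In TFIIE the subunit genes differed little between the siRNA groups. GTF2E1 lies on chromosome 3 (GRCh37, 120461484 to 120501916, plus strand) and GTF2E2 on chromosome 8 (30435835 to 30515768, minus strand). GTF2E1, the alpha subunit, was at 29.5, 31.6, 29.9 and 27.6 CPM in control libraries 1 to 4 and at 29.6, 28.4, 28.5 and 21.2 CPM with BARD1 siRNA. GTF2E2, the beta subunit, was at 79.0, 69.1, 71.3 and 55.2 CPM and at 66.2, 62.3, 67.8 and 53.8 CPM. In each gene the groups overlapped and library 4 was lowest in each group. Both log2 fold changes were -0.13 (SE 0.12 each). Within pairs GTF2E2 was lower with BARD1 siRNA in all 4, from -0.26 to -0.04, and GTF2E1 was lower in 3 and higher in 1. The log2 ratio of GTF2E2 to GTF2E1 per length was 1.98 ± 0.18 and 1.99 ± 0.09 (SD, n = 4 each), a difference of 0.02, with pair values from -0.26 to 0.34. GTF2E1 shares 357 bases with RABL3 on the other strand, which held 485 to 744 reads. The sources used here do not say if strand was used in counting.

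**Figure D3:**
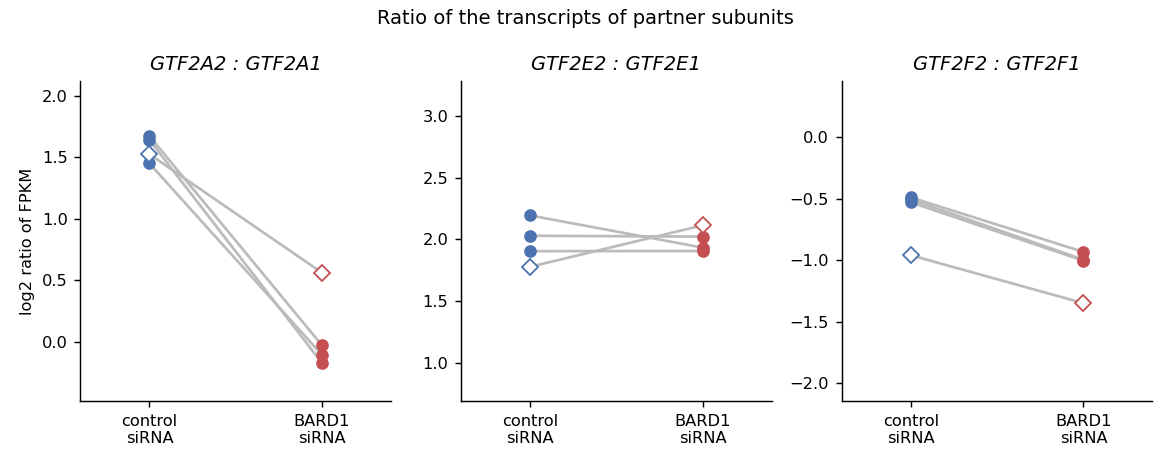
Log2 ratio of FPKM (vertical axes, each spanning the same number of log2 units) of the partner subunits of TFIIA, TFIIE and TFIIF in each library. Grey lines join libraries of equal number, circles are libraries 1 to 3 and open diamonds libraries numbered 4. The GTF2A2 to GTF2A1 ratio differs by -1.51 between group means, GTF2F2 to GTF2F1 by -0.45 and GTF2E2 to GTF2E1 by 0.02.

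TBP on chromosome 6 (GRCh37, 170863390 to 170881958, plus strand) and GTF2B on chromosome 1 (89318615 to 89357627, minus strand) also differed little. TBP was at 42.6, 38.8, 38.6 and 36.0 CPM in control libraries 1 to 4 and at 36.3, 36.4, 37.9 and 32.4 CPM with BARD1 siRNA (log2 fold change -0.12, SE 0.09). GTF2B, the gene of TFIIB, was at 26.4, 24.7, 28.9 and 23.0 CPM and at 28.1, 32.8, 28.3 and 22.6 CPM (0.12, SE 0.13). The groups overlapped in both genes. TBP was lower with BARD1 siRNA in all 4 pairs, by 0.03 to 0.23, while GTF2B was higher in pairs 1 and 2 and lower in pairs 3 and 4.

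Past the threshold (edgeR, adjusted p under 0.05) were 1 of the 8 genes, GTF2A2, and it was lower, against 5.05% of all genes tested, 3.22% lower and 1.82% higher. In GTF2A2 alone the ranges of the groups did not overlap, as in 13.0% of all genes, 7.52% with the BARD1 siRNA libraries lower. With the replicate block 2 of 8 were past it, GTF2A2 and GTF2F2, both lower, against 23.6% of all genes, 12.6% lower and 11.0% higher. Without both libraries numbered 4 these 2 and GTF2A1, the latter higher, were past it, against 30.4%. As this contrast was known when the genes were chosen, nothing is read from these counts.

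GTF2A2 changed its place when the 8 genes were ordered by level per length. In the control libraries the authors' FPKM was highest in GTF2F1, at 54.9 ± 3.38 (SD, n = 4). It was followed by GTF2E2 at 38.8 ± 4.57, GTF2F2 at 35.8 (range 30.4 to 40.0) and GTF2A2 at 31.1 ± 2.91, whose neighbouring ranges overlap. Below a gap came TBP at 20.4 ± 1.09 and GTF2B at 19.0 ± 1.39, which overlap, then GTF2A1 at 10.5 ± 1.02 and GTF2E1 at 9.80 ± 0.31, which overlap too. With BARD1 siRNA GTF2A2 stood at 11.8 ± 0.96 FPKM, below TBP at 18.8 ± 0.55 and within the range of GTF2A1 at 11.4 ± 1.74. It thus went from rank 4 to rank 6 of the 8 genes, and GTF2B and TBP exchanged places with overlapping ranges.

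A comparison that played no part in choosing the genes is that of the libraries numbered 4 with the other 6, with a term for siRNA. The split itself was made because these libraries had been seen to stand apart in the same data, so its p-values belong to a split taken from these counts. Here 5 of the 8 genes were lower in libraries numbered 4 (edgeR, adjusted p under 0.05), and 0 were higher (0 at an unadjusted p under 0.05, 0 by DESeq2), against 46.2% of all genes called, 24.1% lower and 22.1% higher. GTF2A1 fell by 0.44 on the log2 scale (SE 0.09, adjusted p = 0.000529), GTF2E2 by 0.34 (SE 0.08, adjusted p = 0.00121) and GTF2F2 by 0.34 (SE 0.08, adjusted p = 0.00207). GTF2B was lower with a value of -0.31 (SE 0.10, adjusted p = 0.0209) and GTF2E1 with -0.28 (SE 0.10, adjusted p = 0.0205). GTF2A2 (-0.15, SE 0.10, adjusted p = 0.254), TBP (-0.17, SE 0.08, adjusted p = 0.0991) and GTF2F1 (0.07, SE 0.06, adjusted p = 0.409) did not pass. The order of the genes was thus unlike that between the siRNA groups, where GTF2A2 came first. Upper-quartile scaling, which moved the median of all genes from 0.02 to 0.11, left GTF2A1, GTF2E2 and GTF2F2 lower, ended the calls of GTF2B (-0.22, adjusted p = 0.0879) and GTF2E1 (-0.20, adjusted p = 0.0936), and made GTF2F1 a call at 0.16 (adjusted p = 0.0449). Without BARD1 siRNA library 4, GTF2B (-0.22, adjusted p = 0.268) and GTF2E1 (-0.14, adjusted p = 0.446) lost their calls and GTF2A2 gained one (-0.34, adjusted p = 0.0359). Without control library 4, GTF2F2 missed it narrowly (-0.27, adjusted p = 0.0505).

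**Figure D4:**
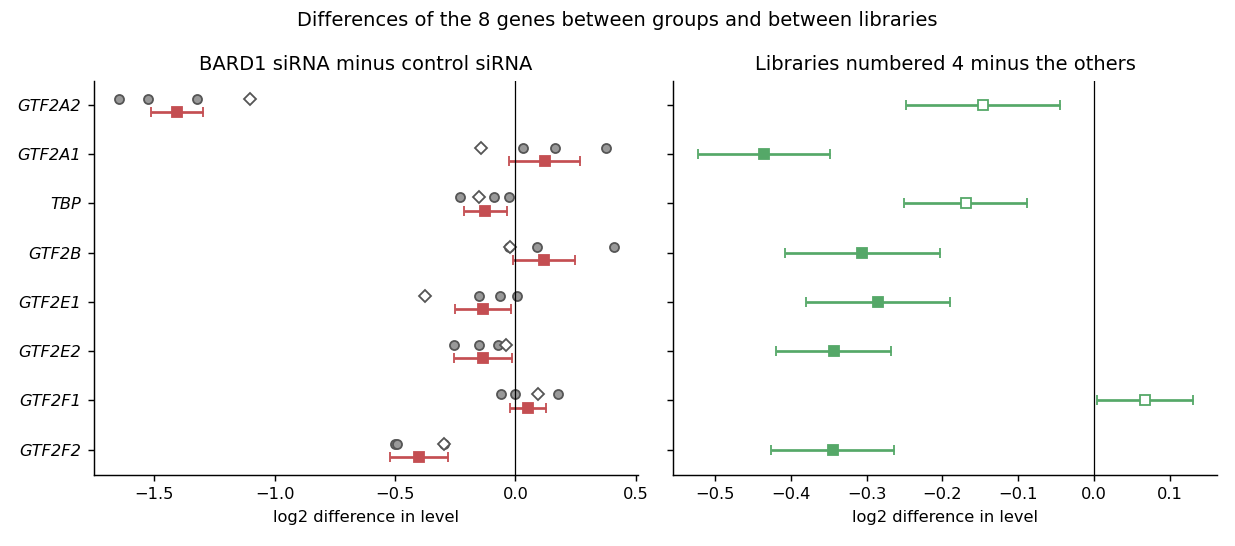
Log2 differences in level (horizontal axes) of the 8 genes between siRNA groups (left) and between the libraries numbered 4 and the others (right). Squares with bars are the edgeR estimate ± SE, grey circles the differences within pairs 1 to 3, open diamonds those in pair 4, and filled squares on the right adjusted p under 0.05. GTF2A2 lies at -1.41 on the left, where the other 7 lie between -0.40 and 0.12, while on the right GTF2A1 is lowest at -0.44.

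The rest of the transcription machinery was described with 8 lists of genes that are not among the 8. Of 108 tested genes in these lists, 3 rose and 8 fell with BARD1 siRNA and 97 did not pass (edgeR, adjusted p under 0.05), with a median log2 fold change of -0.01, against 5.05% called and a median of 0.01 over all genes. Of the calls over all genes, 265 were higher and 468 lower, and with upper-quartile scaling 413 and 470. With the replicate block 14 rose and 22 fell, against 11.0% higher and 12.6% lower over all genes. Without both libraries numbered 4, 20 rose and 21 fell, against 30.4% of all genes called in either direction. The list medians ran from -0.14 to 0.06.

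Among 15 TFIID subunits, the partners of TBP, 1 rose and 1 fell (edgeR, adjusted p under 0.05). TAF9B, a paralog of the histone-fold subunit gene TAF9, was at 82.8, 94.8, 81.1 and 76.8 CPM in control libraries 1 to 4 and at 54.2, 54.9, 49.1 and 49.3 CPM with BARD1 siRNA. The groups did not overlap, and it fell (log2 fold change -0.69, SE 0.09, edgeR adjusted p = 0.00315). TAF13, another histone-fold subunit, rose from 33.5 ± 3.49 to 69.5 ± 22.8 CPM (SD, n = 4 each), by 1.05 on the log2 scale (SE 0.24, edgeR adjusted p = 0.0345). Its BARD1 siRNA values were 76.4, 79.9, 86.0 and 35.8 CPM, and the last, library 4, lay within the control range of 29.2 to 37.8 CPM. TAF13 passed without BARD1 siRNA library 4 but not without any other library in turn (adjusted p up to 0.117), while TAF9B passed in all 8 such fits.

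Of 9 TFIIH subunits, 2 fell and 7 did not pass. CCNH, the cyclin of the kinase that phosphorylates the polymerase tail, had means of 60.1 ± 8.75 and 42.0 ± 2.17 CPM (SD, n = 4 each) and fell, by 0.51 on the log2 scale (SE 0.11, edgeR adjusted p = 0.0315). CCNH held 1169 to 2092 reads per library, and 438 bases of it overlap RASA1 on the other strand, which held 1012 to 1827 reads. Whether reads of RASA1 entered the CCNH counts was not tested. The core subunit gene GTF2H3 fell from 70.9 ± 2.29 to 56.9 ± 4.19 CPM (-0.32, SE 0.08, edgeR adjusted p = 0.0469), but not with RLE scaling (adjusted p = 0.0528), upper-quartile scaling (adjusted p = 0.0893) or no filter (adjusted p = 0.0973). CCNH passed without either library numbered 4 and GTF2H3 without BARD1 siRNA library 4, and neither passed without any of the libraries numbered 1 to 3 (adjusted p up to 0.126 and 0.168). Among 5 regulators and paralogs of TBP and TFIIA, 0 passed with edgeR (1 at an unadjusted p under 0.05, 1 with DESeq2). With the replicate block 1 was higher, BTAF1, and 2 lower, TBPL1 (edgeR adjusted p = 0.0120) and DRAP1. Without the block the TBP paralog gene TBPL1 had the lowest value at -0.35 (SE 0.09, edgeR adjusted p = 0.0644). TASP1, the protease that cuts the GTF2A1 product, was at 0.07 (SE 0.16, edgeR adjusted p = 0.884).

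Of 12 RNA polymerase II subunits and 7 TFIIIA and TFIIIC genes, 0 passed with edgeR or with DESeq2, and 1 in each list had an unadjusted p under 0.05. With the replicate block POLR2B was higher and POLR2C, POLR2E and GTF3C3 were lower, with edgeR log2 fold changes of 0.19, -0.27, -0.22 and -0.24. Of 32 Mediator subunits, which link activators to the polymerase, 1 rose and 2 fell. MED28 was at 34.2, 34.8, 29.4 and 30.1 CPM in control libraries and at 62.0, 59.8, 58.7 and 43.6 CPM with BARD1 siRNA, and it rose (log2 fold change 0.80, SE 0.12, edgeR adjusted p = 0.00731) in all 8 fits that leave out a library. MED20 fell (-0.68, SE 0.12, edgeR adjusted p = 0.0158), as did MED30 (-0.52, SE 0.13, edgeR adjusted p = 0.0442). MED20 passed without control library 4 or BARD1 siRNA library 2 or 4, and MED30 without BARD1 siRNA library 4 only (adjusted p up to 0.0714 and 0.152). MED30 also missed the threshold with upper-quartile scaling (adjusted p = 0.0588) and with no filter (adjusted p = 0.136).

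Of 14 genes for partners of TBP in transcription by RNA polymerases I and III, 1 rose and 2 fell, all of them subunits of SNAPc, the complex on small nuclear RNA promoters. SNAPC1 was at 18.4, 16.2, 14.8 and 13.2 CPM in control libraries and 6.71, 7.70, 6.08 and 9.76 CPM with BARD1 siRNA, and fell (log2 fold change -1.05, SE 0.18, edgeR adjusted p = 0.0122). SNAPC3 fell (-0.59, SE 0.11, edgeR adjusted p = 0.0199) and SNAPC4 rose (0.41, SE 0.10, edgeR adjusted p = 0.0418), the latter not with no filter on low counts (adjusted p = 0.0633). SNAPC3, with 592 to 1136 reads per library, overlaps PSIP1 by 1888 bases on the other strand, and PSIP1 held 3673 to 5767 reads. Whether reads of PSIP1 entered the SNAPC3 counts was not tested. SNAPC1 missed the threshold without control library 1 or 2 or BARD1 siRNA library 1 (adjusted p up to 0.0572). SNAPC3 passed without either library numbered 4 and SNAPC4 without BARD1 siRNA library 4, and not without any other (adjusted p up to 0.0883 and 0.148). Of 14 elongation and pausing genes 1 fell, TCEA1, which encodes the cleavage factor TFIIS that restarts stalled polymerase. It was at 256, 260, 254 and 217 CPM in control libraries and 154, 163, 155 and 146 CPM with BARD1 siRNA (-0.68, SE 0.08, edgeR adjusted p = 0.00274), and passed in all 8 fits that leave out a library.

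**Figure D5:**
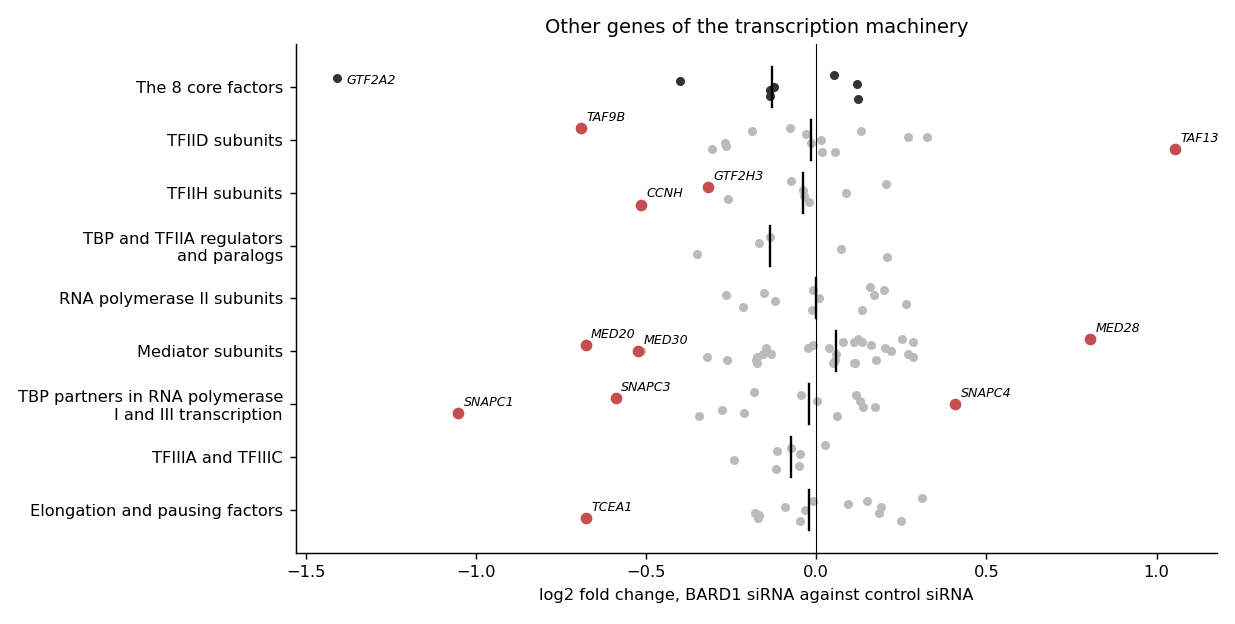
Log2 fold change between BARD1 siRNA and control siRNA (horizontal axis) of the 8 core factors (dark points, shown without their calls) and of 108 genes in 8 lists of the transcription machinery. Red points passed the test (edgeR, adjusted p under 0.05), grey points did not, and vertical bars are list medians. GTF2A2 at -1.41 lies below every list gene, the lowest of which is SNAPC1 at -1.05.

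The octamer of GTF2A2 was also present in 10 of the list genes with a 3′ UTR. Their log2 fold changes ran from -0.68 in TCEA1, the 1 of these that fell, to 0.31 in ELL2, with a median of -0.13. With the replicate block 3 fell, TAF4B, POLR2E and TCEA1, and 2 rose, MED13L and AFF4. Among 18 list genes with a heptamer only, GTF2H3, MED20 and SNAPC1 fell and MED28 rose, with a median of -0.15, and with the block 7 fell and 1 rose. Among 79 with neither, TAF9B, CCNH, MED30 and SNAPC3 fell and TAF13 and SNAPC4 rose, with a median of -0.01, and with the block 12 fell and 11 rose. Over all genes with a 3′ UTR, 17.6%, 6.59% and 2.03% of these classes fell without the block, and 0.826%, 2.46% and 2.08% rose. With the block, shares by class over all genes are not given here. Over all genes tested, 12.6% fell and 11.0% rose with it. The classes were not tested against each other.

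The genes most like GTF2A2 across the 8 libraries were ZMPSTE24, AGPAT9, XPR1, PICALM and CCDC88A, with Pearson r of 0.997 for ZMPSTE24 to 0.994 for CCDC88A over log2 CPM. All 5 were lower in the BARD1 siRNA libraries, so the likeness is mostly that of the siRNA groups. With group means subtracted, their r with GTF2A2 was 0.836 in CCDC88A to 0.939 in ZMPSTE24. ZMPSTE24, XPR1 and CCDC88A hold the octamer and AGPAT9 and PICALM a heptamer only. The octamer was found from the genes that fell, these among them, so its presence here is no separate result. Over all genes with a 3′ UTR, 6.02% held the octamer and 17.9% a heptamer only. Of the genes that fell, 28.1% held the octamer. AGPAT9, a glycerolipid acyltransferase gene, had a log2 fold change of -1.49 (SE 0.11), and XPR1, a phosphate exporter gene, one of -1.25 (SE 0.09). Among the members, GTF2F2 was most like GTF2A2, with a Pearson r of 0.82 over the 8 libraries. After subtraction of group means, members went together in another grouping, with r of 0.94 between TBP and GTF2E2 and 0.90 between GTF2A1 and GTF2B, and -0.73 between GTF2A1 and GTF2F1. These values share library depth and the offset of the libraries numbered 4.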

How the data were processed

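RNA sequencing of 8 MiaPaCa-2 libraries was analysed from the table of read counts that the authors deposited. The submitters' processing notes name GRCh37 and, as tools, featureCounts, fastp and HISAT2, the last as version 2.0.5. The authors' FPKM values matched count over gene length and library total within a relative 5e-12. The authors' deposited log2 fold changes and p-values were not used. A further 8 columns with values per sample were left out, and 22217 rows with no gene name held 0 reads.

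The deposited counts went into edgeR (R 4.3.3, edgeR version 4.0.16), with filterByExpr, TMM scaling and the two-sided quasi-likelihood F-test without further terms, with Benjamini-Hochberg adjustment over 14528 genes and a threshold of 0.05. The SE is that implied by the F statistic. Scripts were tested on simulated data. Alternatives were other scalings, no filter, DESeq2 (version 1.42.0), the replicate block and leaving out libraries. 3′ UTRs come from the basic protein-coding transcripts of GENCODE 29, the longest of each gene, and likeness used log2(CPM + 0.5) over protein-coding genes with a mean of at least 5 CPM.

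The genes, the gene lists and the split by libraries numbered 4 were chosen with earlier results of these data known. Named genes are the 8 members, BARD1, up to 4 called genes of each list by smallest p, the 5 genes most like GTF2A2, its nearest tested neighbours and the paralog TBPL1. TBPL2 was not tested. Other names were chosen after their values were seen: RABL3, GCNT3, RASA1 and PSIP1, which overlap named genes, and TASP1, ELL2, VIM, CDH5 and the list genes named only with the replicate block. Libraries of equal number were taken as pairs for the replicate block and the differences within pairs, which is an assumption. Their deviations from group means had correlations of 0.501, 0.499, 0.620 and 0.861 for numbers 1 to 4, over 9738 genes. Unlike numbers among 1 to 3 gave 0.389 to 0.510, so the values of numbers 1 and 2 do not set these apart as pairs. With library 4 offset in each group, libraries 1 to 3 deviate together from the group means whether paired or not.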

Additional observations from a re-analysis of the deposited data

Results flagged for a closer look

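A single value lay apart, by a Dixon test at the 95% level, in 4 of 24 groups of 4 libraries, counted over the 8 genes, BARD1 and the 3 subunit ratios. That test marks about 1 group in 20 by chance, which is 1.2 of 24. Each of the 4 values came from a library numbered 4. With BARD1 siRNA, library 4 was low for GTF2A1, at 52.0 CPM against 75.8 to 80.6, and for GTF2E1, at 21.2 CPM against 28.4 to 29.6. Among control libraries, number 4 was low for BARD1, at 20.8 CPM against 26.9 to 28.0, and for the log2 ratio of GTF2F2 to GTF2F1, at -0.96 against -0.53 to -0.49.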

How the results depend on the processing

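The log2 fold change of GTF2A2 between siRNA groups lay between -1.50 and -1.38 under the other scalings, no filter, DESeq2, the replicate block and without both libraries numbered 4, and between -1.49 and -1.34 without each library in turn. The difference between siRNA groups in the log2 ratio of GTF2A2 to GTF2A1 lay between -1.67 and -1.43 without each library. The count of genes changed was 733 and became 3430 with the replicate block, 4428 without both libraries numbered 4, 1507 with DESeq2, and 178 to 2506 without each library. The count of list genes called was 11 and became 36 with the replicate block, 41 without both libraries numbered 4, 18 with DESeq2, and 3 to 23 without each library. Between libraries numbered 4 and the others, 6712 genes changed, and 4081 to 6546 without each library. There the log2 value of GTF2A2, -0.147, was -0.337 to 0.0671 without each library, its sign turning without control siRNA library 4. Of the 5 genes most like GTF2A2, 1 was shared with the top 5 by Spearman rho and 0 with those by deviations from group means. By deviations these 5 had ranks from 6 (ZMPSTE24) to 79 (CCDC88A), over 9738 genes compared. The cause of these differences was not tested. Genes with the octamer that fell numbered 128, 111 with a 3′ UTR of at least 1000 bases, an alternative chosen after seeing the data. The FPKM order of the 8 genes held under TMM rescaling.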
